A study of Vitis vinifera with 60 samples.

Results

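Vermentino, a white wine grape grown along the Ligurian and Tyrrhenian coasts and on Sardinia and Corsica, was compared with 4 other white-skinned cultivars of Vitis vinifera at matched stages of berry development. It accounted for 12 of the 60 libraries listed, as 3 for each of 4 stages. The others were Garganega, Glera, Moscato bianco and Passerina, with 12 libraries each. All vines stood in 1 vineyard at Conegliano and were sampled in the 2011 season. RNA came from pericarp, here whole berries with the seeds taken out. The stages were pea-sized green berries (Pea), green berries starting to touch each other (Touch), softened berries (Soft) and harvest-ripe berries (Harv). The labels name no treatment for any group and do not say whether the 3 libraries of a group came from separate vines.

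A grape berry grows in a first green phase, in which it stores organic acids and tannins. At softening it enters ripening, in which the flesh takes up sugar, loses acid and gathers aroma compounds, and in white cultivars no red pigment forms in the skin. The cultivars compared here differ in aroma, Moscato bianco being a muscat grape rich in floral terpenes.

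The values were the authors' mean FPKM, a count of sequenced fragments scaled by transcript length and library size, with 1 mean for each cultivar and stage. Vermentino thus had 4 values for a gene and the other cultivars had 16. Since single libraries were not analysed here, every spread below is one between cultivars or stages. A p-value therefore does not speak of the spread between berries, vines or libraries of 1 cultivar. Of 29287 genes, 20833 reached 1 FPKM in at least 1 of the 20 columns and were compared. Sequencing depth is unknown. The libraries were made without strand information, so reads of overlapping or antisense genes are mixed, and close copies of a gene may share fragments. The table gives identifiers without gene names, and 0 of them matched the annotation at hand. Genes are therefore given by identifier, their functions are left out, and the tissue could not be checked against marker genes.

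The Passerina column at Touch stood apart and touches several results for Vermentino. Genes were picked that reached 2 FPKM at all stages of 1 cultivar and stayed below 10% of that level in the others at the stages not under check. In the Passerina Touch column, 9 of 17 such genes stood at 10% or more of the level in the cultivar they marked. In each of the other 19 columns the number was 0 or 1, of 8 to 18 genes. Of the 6 genes that marked Vermentino at Touch, 4 stood in that Passerina column at 20.7% to 34.4% of their Vermentino level. The part of this column in the results was not tested, and counts without it are given for the tested comparisons and for the margin over all stages. Values of exactly 0 also need care, since genes with high FPKM elsewhere were sometimes listed at 0. In the Vermentino columns, the number of genes listed at 0 was 78 at Pea, 98 (Touch), 128 (Soft) and 217 (Harv), counting genes that reached 10 FPKM in another column. The other cultivars had 55 to 61 such genes (Pea), 59 to 96 (Touch), 114 to 129 (Soft) and 136 to 204 (Harv).

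The first question was which genes set Vermentino apart throughout development. Vermentino was higher than the mean of the other 4 cultivars in 314 genes and lower in 378. These genes passed a limma test that paired the columns by stage, at a Benjamini-Hochberg adjusted p under 0.05 and a difference of at least 2-fold on log2(FPKM + 1). They were 1.51% and 1.81% of the 20833 genes tested, or 3.32% in all. The median difference was 1.36 on the log2 scale for the high genes and -1.33 for the low genes, against -0.014 over all genes. At least 4-fold differences were found in 41 high and 64 low genes. Without the Passerina Touch column 686 genes were called, and 661 of them were among the 692. When each cultivar was reduced to its mean over the stages, so that 5 values entered the test, 1 gene was called (0.0048%). The paired count thus rests on taking the 4 stages of a cultivar as separate measurements.

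**Figure D1:**
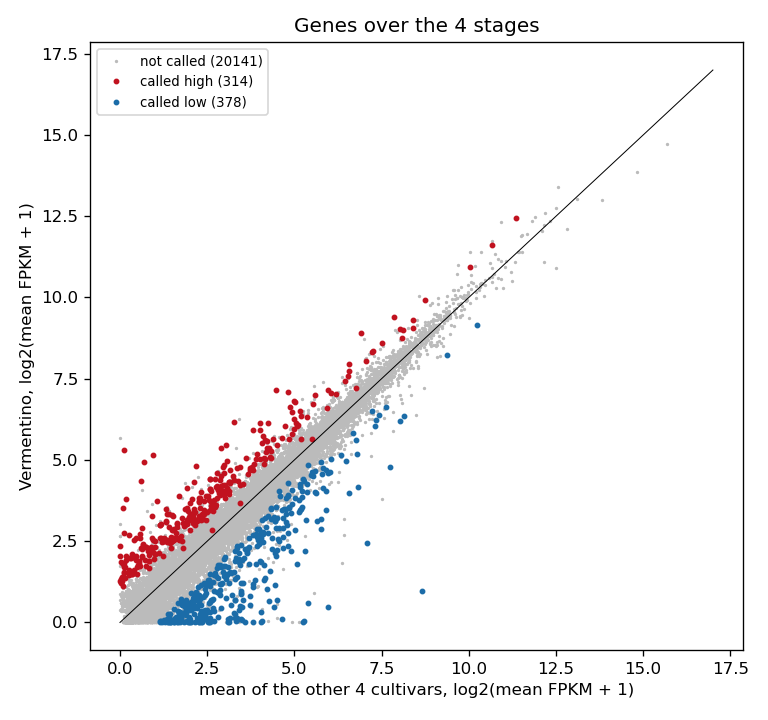
Each point is 1 of 20833 genes, with the mean of the other 4 cultivars on the x axis and Vermentino on the y axis, both as log2 of the mean FPKM over 4 stages plus 1. Red points are the 314 genes called high, blue points the 378 called low and grey points the rest, and the line marks equal levels.

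The number of genes called for Vermentino lay within the range of the other cultivars. The same test, run for each cultivar against the other 4, called 690 genes for Garganega, 604 for Glera, 777 for Moscato bianco and 523 for Passerina. These runs share all their samples, so they are given side by side and were not compared by a test. Low genes outnumbered high genes in Vermentino, Glera and Moscato bianco, and high genes outnumbered low genes in Garganega and Passerina.

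A stricter description asked for Vermentino to lie outside the range of the other 4 cultivars at every stage. Of the called genes, 154 lay above the highest other cultivar at all 4 stages (0.739% of genes tested) and 185 lay below the lowest (0.888%), or 1.63% together. Without the Passerina Touch column these 339 genes became 343. In 22 of the 154 high genes the other cultivars stayed under 1 FPKM in every column. Those 22 entered the comparison through Vermentino alone, so their place above the range says little beyond the values. Of all genes, called or not, 602 lay above the range at all 4 stages (2.89%) and 685 below it (3.29%). Among the 154 high genes, the cultivar next to Vermentino was Passerina in 47, Garganega in 37, Glera in 35 and Moscato bianco in 35. Among the 185 low genes it was Moscato bianco in 68, Glera in 49, Passerina in 37 and Garganega in 31. The gap to the nearest cultivar was at least 2-fold at all stages in 12 genes above (0.0576%) and 23 genes below (0.11%). In 5 of the 12 genes above, the other cultivars stayed under 1 FPKM in every column, so these genes entered the comparison through Vermentino alone. Without the Passerina Touch column the 35 genes became 36. They became 57 without Garganega, 53 without Glera, 79 without Moscato bianco, 54 without Passerina, 53 without the Pea columns and 60 without the Harv columns, since fewer values then had to be cleared.

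Part of both groups was near-absent on the lower side. In 141 of the 378 low genes Vermentino stayed under 1 FPKM at all 4 stages, and in 19 of these every value of the other cultivars was at least 1 FPKM. In 15 low genes Vermentino was listed at 0 at all 4 stages. Of the 314 high genes, 27 stayed under 1 FPKM in every column of the other cultivars, and 9 of these had at least 1 FPKM in Vermentino at every stage. The 27 genes entered the comparison through Vermentino alone, so their calls say little beyond the values. A mean of 10 FPKM or more on the higher side was reached in 159 high and 165 low genes. It was 100 FPKM or more in 29 high and 16 low genes.

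Of the called genes that averaged at least 10 FPKM on the higher side, those with the widest margin above the other cultivars were near-silent elsewhere, apart from Passerina at Touch. VIT_17s0000g00060 stood in Vermentino at 12.03 FPKM at Pea, 15.6 at Touch, 8.15 at Soft and 5.82 at Harv. The highest of the 16 values in the other cultivars was 0.286 FPKM, in Passerina at Harv, and Moscato bianco was listed at 0 at all stages. Vermentino therefore lay above every other cultivar at each stage, with a log2 difference of 3.34 ± 0.14 (SE; adjusted p = 1.34e-09, limma). The gene passed the limit of 1 FPKM through Vermentino alone and had to differ, so the call says little beyond these values.

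The joined entry VIT_16s0022g01150,VIT_16s0022g01160, which covers a pair of neighbouring identifiers, stood at 15.4, 29.7, 15.9 and 16.3 FPKM from Pea to Harv in Vermentino. In Passerina at Touch it stood at 6.16 FPKM, and the other 15 values were at most 0.289 FPKM. The difference was 3.94 ± 0.30 on the log2 scale (SE; adjusted p = 5.55e-07, limma). VIT_11s0037g01430 had the same shape, with 30.0, 41.6, 31.9 and 35.4 FPKM in Vermentino, 11.2 FPKM in Passerina at Touch and at most 0.807 FPKM elsewhere. Its difference of 4.65 ± 0.41 was the largest among the high genes (SE, log2 scale; adjusted p = 2.34e-06, limma). In both genes Vermentino and the other cultivars overlapped at no stage. Apart from the Passerina Touch column, no column of the other cultivars reached 1 FPKM in either gene. Without that column both would enter through Vermentino alone and would have to differ, so the calls say little beyond these values.

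Among the low genes at that level, VIT_13s0067g02270 had the widest margin. It stood at 4.23 FPKM at Pea, 5.997 at Touch, 3.19 at Soft and 4.27 at Harv. In the other cultivars the 16 values ran from 52.8 FPKM, in Glera at Harv, to 227 FPKM, in Moscato bianco at Touch. The gene was thus well expressed in every other cultivar and low in Vermentino at every stage, with a difference of -4.55 ± 0.10 on the log2 scale (SE; adjusted p = 1.13e-12, limma). At single stages the difference ran from -4.73 to -4.29.

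VIT_18s0001g14790 was 1 of the 7 low genes with a 2-fold margin at all stages and a mean of 10 FPKM or more on the higher side. Vermentino held 4.16, 3.09, 5.58 and 1.51 FPKM from Pea to Harv. At Soft the gene stood at 149 FPKM in Garganega, 74.2 in Glera, 63.2 in Moscato bianco and 49.3 in Passerina. In all 4 other cultivars the level at Soft was above that at Touch and at Harv, and Vermentino also had its highest value at Soft, on a lower scale. The difference was -2.67 ± 0.32 over the stages (SE, log2 scale; adjusted p = 4.39e-05, limma), from -1.57 at Pea to -3.56 at Soft.

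**Figure D2:**
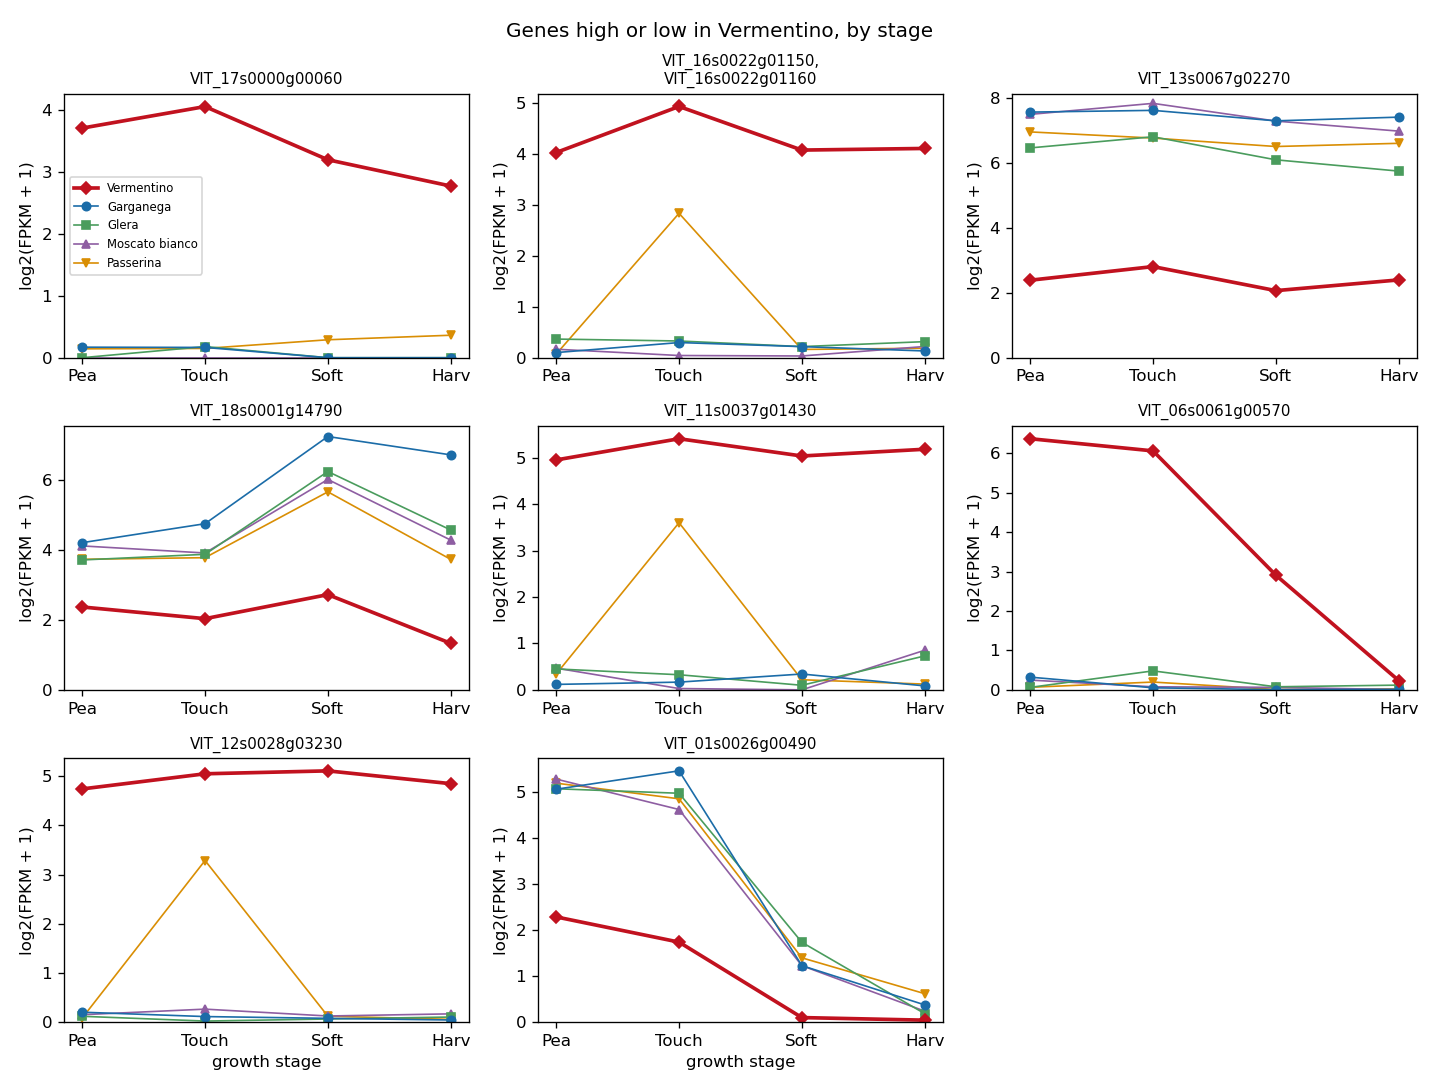
Each panel is 1 gene, with the stage on the x axis and log2(FPKM + 1) on the y axis, and each line is 1 cultivar, Vermentino in thick red. In 3 panels the Passerina line peaks at Touch, at 6.16, 11.2 and 8.75 FPKM, where Garganega, Glera and Moscato bianco stay near 0.

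The calls of these 5 genes were lost when cultivar means were the units. Their adjusted p then ran from 0.0642 for VIT_17s0000g00060 to 0.565 for VIT_18s0001g14790 (limma, 5 values). The 1 gene called in that test was VIT_06s0061g00570, with a difference of 3.78 ± 0.17 (SE, log2 scale; adjusted p = 0.0449, limma). It stood in Vermentino at 81.9 FPKM at Pea, 65.9 at Touch, 6.52 at Soft and 0.179 at Harv. The other cultivars had at most 0.397 FPKM at any stage. It thus entered the test through Vermentino alone, and the spread in the test came from 4 means near 0, so the call says little beyond these values. The gene was therefore a green-berry transcript seen at an appreciable level in Vermentino alone among these 5 cultivars, and its lead had shrunk to 0.20 on the log2 scale by harvest.

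The size of the differences changed somewhat with the stage. For the 314 high genes the median difference was 1.32 at Pea, 1.55 at Touch, 1.49 at Soft and 1.18 at Harv, on the log2 scale. For the 378 low genes it was -1.30, -1.51, -1.45 and -1.30 in the same order. These genes were chosen on the mean of the same 4 values, so the medians and the peak stages are a description. By the Vermentino level, 44.3% of the high genes peaked at Touch, against 30.6% of all genes compared. The share was 29.0% against 37.6% at Pea, 10.5% against 7.73% at Soft and 16.2% against 24.1% at Harv. By the mean of the other cultivars, 33.3% of the low genes peaked at Touch, against 31.6% of all. The share was 33.1% against 38.4% at Pea, 13.5% against 7.63% at Soft and 20.1% against 22.3% at Harv.

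The second question was which genes differed at a single stage. Here 1 Vermentino value was set against the other 4, on the assumption that it varies as they do, and few genes passed. All 15 high calls below were of genes with at most 0.384 FPKM in every other cultivar at that stage. They passed the limit of 1 FPKM through Vermentino alone and had to differ, so they are given as a description. At Pea 7 genes were called high (0.0356% of 19653 tested) and 1 low (0.00509%). At Touch 0 of 19085 genes were called with limma. At Soft 4 genes were called high (0.0225% of 17808) and at Harv 4 were called high (0.0227% of 17584), with 0 low at both. The tests at Pea, Soft and Harv hold no Passerina Touch value, so only the count at Touch could change without that column, and it stayed at 0. With the spread pooled over the stages, calls of both directions appeared, with 57 high and 25 low genes (Pea), 65 and 38 (Touch), 44 and 31 (Soft) and 79 and 36 (Harv). A limit of 5 FPKM left 0 calls at each stage. In 8 of these 16 calls all other cultivars were listed at 0. Leaving out any 1 of the other cultivars gave 0 calls at Pea and at Touch. It gave 1 high call at Soft without Garganega, 1 low call at Soft without Passerina and 1 low call at Harv without Glera, and 0 otherwise.

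VIT_12s0028g03230 was called at Pea, Soft and Harv. Vermentino held 25.7 FPKM at Pea, 32.1 at Touch, 33.5 at Soft and 27.8 at Harv, a nearly level course. Passerina at Touch held 8.75 FPKM, and the other 15 values were at most 0.1999 FPKM. The difference was 4.60 ± 0.27 at Pea, 5.01 ± 0.26 at Soft and 4.76 ± 0.26 at Harv (SE, log2 scale; adjusted p = 0.0307, 0.0380 and 0.0342, limma). At Touch, where Passerina stood apart, it was 4.13 ± 1.38 and did not pass (adjusted p = 0.959, limma).

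VIT_06s0061g00570, already described, had the largest difference at Pea among genes with no value listed at 0, at 6.20 ± 0.28 (SE, log2 scale; adjusted p = 0.0225, limma). The 1 gene called low at Pea was VIT_01s0026g00490. Vermentino held 3.87 FPKM there, below 32.2 in Garganega, 32.5 in Glera, 37.7 in Moscato bianco and 35.4 in Passerina. The other cultivars thus lay close together and Vermentino apart from them, with a log2 difference of -2.86 ± 0.18 (SE; adjusted p = 0.0332, limma). At Touch Vermentino held 2.33 FPKM and the others 23.5 to 42.8, but the test there did not pass (adjusted p = 0.226, limma). By Harv the gene had dropped to 0.0290 FPKM in Vermentino and to 0.136 to 0.533 FPKM in the others.

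Some calls at Pea rest on values that call for caution. A pair of called genes carried the same Vermentino value, 28.9 FPKM, with all other cultivars listed at 0. Another stood at 200.3 FPKM in Vermentino at Pea and was listed at 0 in all 19 other columns. Over the table, 6 genes reached 10 FPKM in a single column and were listed at 0 in the rest, of which 2 were in Vermentino at Pea and 1 in Vermentino at Touch.

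By a fixed size, with no test, many more genes set Vermentino apart at 1 stage. At Pea 114 genes stood at least 2-fold above the highest other cultivar (0.58%) and 122 at least 2-fold below the lowest (0.621%). At Touch the numbers were 159 above (0.833%) and 181 below (0.948%). At Soft they were 159 (0.893%) and 191 (1.07%), and at Harv 178 (1.01%) and 168 (0.955%). Over the stages 442 genes had such a margin above and 470 below, of which 322 and 349 had it at 1 stage only. Of the 6 pairs of stages, Pea and Touch shared the most genes in number, by a small lead on the low side. Of the genes above at Pea, 63 were above at Touch too, which is 55.3% of the Pea genes and 39.6% of the Touch genes. Touch and Soft shared 47 genes (29.6% of each), Soft and Harv 44 (27.7% and 24.7%), and Pea and Harv 18 (15.8% and 10.1%). On the low side Pea and Touch shared 62 genes (50.8% and 34.3%), Touch and Soft 59 (32.6% and 30.9%), and Soft and Harv 57 (29.8% and 33.9%). The other cultivars at Touch ran from 103 genes above in Glera to 343 in Garganega, and from 43 below in Passerina to 269 in Moscato bianco.

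**Figure D3:**
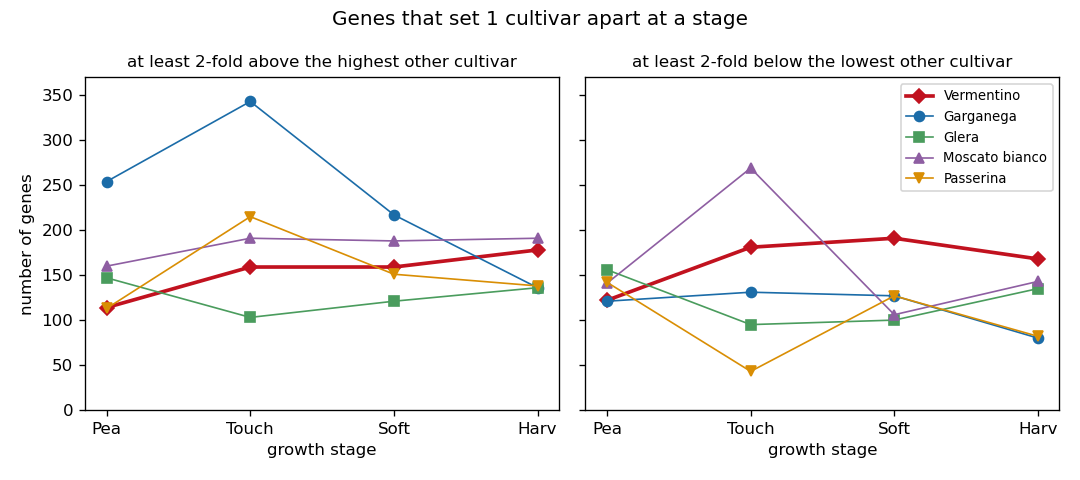
The y axis counts genes at least 2-fold above the highest (left) or below the lowest (right) of the other 4 cultivars at each stage on the x axis, with 1 line for each cultivar. Vermentino, in thick red, runs from 114 to 178 genes above and from 122 to 191 below.

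The third question was whether genes changed differently between stages in Vermentino than in the other cultivars. The difference in change was tested for 3 adjacent steps and for the mean of both green stages against the mean of both ripe stages, in 1 model for all genes. From Pea to Touch 6 genes differed (0.0288%), 3 more positive (0.0144%) and 3 more negative (0.0144%), and all of them had values listed at 0. From Touch to Soft 15 genes differed (0.072%), 4 with a more positive (0.0192%) and 11 with a more negative change in Vermentino (0.0528%). From Soft to Harv 21 genes differed (0.101%), 15 more positive (0.072%) and 6 more negative (0.0288%). Between the green and the ripe stages 77 genes differed (0.37%), 34 more positive (0.163%) and 43 more negative (0.206%). In 5, 10, 12 and 24 of these genes, in the same order, no column of the other cultivars reached 1 FPKM, so they entered through Vermentino alone. Without the Passerina Touch column the counts were 9, 12, 14 and 67. The 15 genes from Touch to Soft became 8 without Glera and 4 without Passerina. The 21 genes from Soft to Harv became 9 without Garganega, 4 without Glera, 10 without Moscato bianco and 2 without Passerina. In all called genes the change in Vermentino lay outside the range of the other 4 changes. It had the opposite sign to every other cultivar in 1 gene from Touch to Soft and in 11 genes from green to ripe. In each of these, Vermentino or all the other cultivars changed less than 2-fold, so the sign alone shows no clear reversal. In the gene from Touch to Soft, the others changed by only 0.015 to 0.069 on the log2 scale.

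The direction of the calls depended on the scale in part. From Soft to Harv 71.4% of the calls were more positive, against 83.9% after quantile normalization and 78.0% with equal medians. The share was 33.3% of 3 calls with a limit of 5 FPKM and 55.6% of 9 calls without Garganega. It was 50% without Glera, Moscato bianco or Passerina, of 4, 10 and 2 calls in that order. Shares of so few calls can shift with 1 gene. From green to ripe 44.2% were more positive, against 53.8% and 55.2%.

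VIT_13s0047g00230 had a Soft peak in Vermentino. It stood at 0.618 FPKM at Pea, 0.953 at Touch, 25.1 at Soft and 4.42 at Harv. The other cultivars had 0.209 to 1.13 FPKM at Soft and at most 3.59 FPKM at any stage. From Touch to Soft it gained 4.08 ± 0.53 more on the log2 scale than the mean of the others (SE; adjusted p = 0.0166, limma), and Vermentino was the highest cultivar at Soft and Harv. The call was lost without Garganega, Glera or Passerina, and over the alternatives the adjusted p ran from 0.000148 to 0.415.

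VIT_14s0060g02000 was higher at Soft than at Touch in every cultivar, with the lowest Soft level in Vermentino. It was at most 0.576 FPKM at Pea and Touch in all columns. At Soft it reached 31.5 FPKM in Garganega, 24.8 in Glera, 26.5 in Moscato bianco and 45.2 in Passerina, against 1.87 in Vermentino. At Harv Vermentino had 2.23 FPKM and the others 25.3 to 50.4. The difference in change from Touch to Soft was -3.15 ± 0.45 on log2(FPKM + 1) (SE; adjusted p = 0.0261, limma). As a plain ratio of FPKM the change was 111-fold in Vermentino, inside the range of 70.0-fold to 267-fold in the others. With a pseudocount of 0.1 the difference was -2.42 and the call was lost (adjusted p = 0.915, limma). In VIT_19s0014g00750 the level at Soft was below that at Touch in all 5 cultivars. The other cultivars held 12.1 to 21.1 FPKM at Touch and 2.78 to 5.80 FPKM at Soft, while Vermentino held 0.266 and 0.0655 FPKM. Its difference in change was 1.48 ± 0.21 on log2(FPKM + 1) (SE; adjusted p = 0.0253, limma), and Vermentino was below the others at all 4 stages. As a plain ratio the level at Touch was 4.07-fold that at Soft in Vermentino, inside the range of 3.49-fold to 4.39-fold in the others. The difference was 0.81 with a pseudocount of 0.1, 1.10 with equal medians and 1.04 after quantile normalization, and each ended the call (adjusted p = 0.880, 0.190 and 0.194, limma). The first gene thus differed in level at Soft and Harv and the other at all 4 stages. The calls of their change from Touch to Soft depended on the value added before the logarithm. The plain ratios rest on Vermentino values as low as 0.0168 and 0.0655 FPKM, so they do not show that the changes were alike. Both calls from Touch to Soft were also lost without any 1 of the other cultivars and without the Passerina Touch column. Of the alternatives run, 8 of 14 ended the first call and 10 of 15 the other. Between green and ripe stages both genes were called too, at -3.28 and 1.48 on log2(FPKM + 1) (adjusted p = 0.000518 and 0.000647, limma).

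From Soft to Harv a pair of genes gained more in Vermentino than in the other cultivars. VIT_03s0088g00700 went from 1.04 FPKM at Soft to 62.4 at Harv in Vermentino. At Harv it stood at 0.535 FPKM in Garganega, 2.60 in Glera, 1.71 in Moscato bianco and 2.60 in Passerina. VIT_18s0001g04280 went from 0.321 FPKM to 45.3 in Vermentino, and at Harv it stood at 2.91 FPKM in Garganega, 5.10 in Glera, 1.46 in Moscato bianco and 2.10 in Passerina. Both were higher at Harv than at Soft in all 5 cultivars, and the gain in Vermentino was larger by 3.74 ± 0.52 and 3.73 ± 0.49 (SE, log2; adjusted p = 0.0285 and 0.0212, limma). The first call was lost without Glera, Moscato bianco or Passerina and the other without any 1 of the 4 cultivars, with adjusted p up to 0.819 and 0.594 over the alternatives.

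The joined entry VIT_05s0049g01610,VIT_05s0049g01620 went the other way. Vermentino held 2.09 FPKM at Pea, 7.98 at Touch, 11.3 at Soft and 0.553 at Harv, and the other cultivars never passed 0.707 FPKM. The level in Vermentino was thus lower at Harv than at Soft, while the others were near 0 at both, and the change differed by -3.05 ± 0.23 (SE, log2; adjusted p = 0.000321, limma). This entry passed the limit of 1 FPKM through Vermentino alone, and the call was lost with a pseudocount of 0.1 (adjusted p = 0.114, limma).

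Between the green and ripe stages, VIT_12s0059g00050 was a green-stage gene in the other cultivars that Vermentino barely held. At Pea it stood at 17.5 FPKM in Garganega, 10.4 in Glera, 27.4 in Moscato bianco and 22.8 in Passerina, against 0.136 in Vermentino. At Harv all 5 cultivars were under 0.142 FPKM. The difference in change was 3.40 ± 0.36 (SE, log2 scale; adjusted p = 0.00113, limma). Vermentino held at most 0.138 FPKM at any stage, so on this scale the difference mainly restates the gap in level at the green stages. As a plain ratio the green level was 6.84-fold the ripe level in Vermentino and 32.4-fold to 145-fold in the others. VIT_02s0025g04250 went in Vermentino from 0.173 FPKM at Pea and 0.361 at Touch to 10.3 at Soft and 17.1 at Harv. Glera was next at 4.38 FPKM at Soft and 3.67 at Harv, and the other 3 stayed under 1 FPKM at both. Its difference in change was 3.37 ± 0.41 (SE, log2 scale; adjusted p = 0.00300, limma).

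VIT_01s0026g02520 stood at 12.4 to 61.8 FPKM at Soft in the other cultivars, up from 0.909 to 4.55 at Touch. Vermentino held 4.44 FPKM at Touch, 4.60 at Soft and 8.81 at Harv. Vermentino was the highest at Pea and the lowest at Soft and Harv, and the change differed by -2.62 ± 0.46 (SE, log2 scale; adjusted p = 0.0365, limma). This call was lost without the Passerina Touch column and without Glera, Moscato bianco or Passerina, with an adjusted p up to 1 over the alternatives. VIT_17s0000g03690 was the most abundant of these genes. Vermentino held 2467 FPKM at Pea, 2413 at Touch, 480 at Soft and 208 at Harv, so it was highest of the 5 at both green stages and lowest at both ripe ones. The others held 1722 to 2003 FPKM at Pea and 526 to 657 at Harv, and the change differed by -1.72 ± 0.20 (SE, log2 scale; adjusted p = 0.00293, limma).

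**Figure D4:**
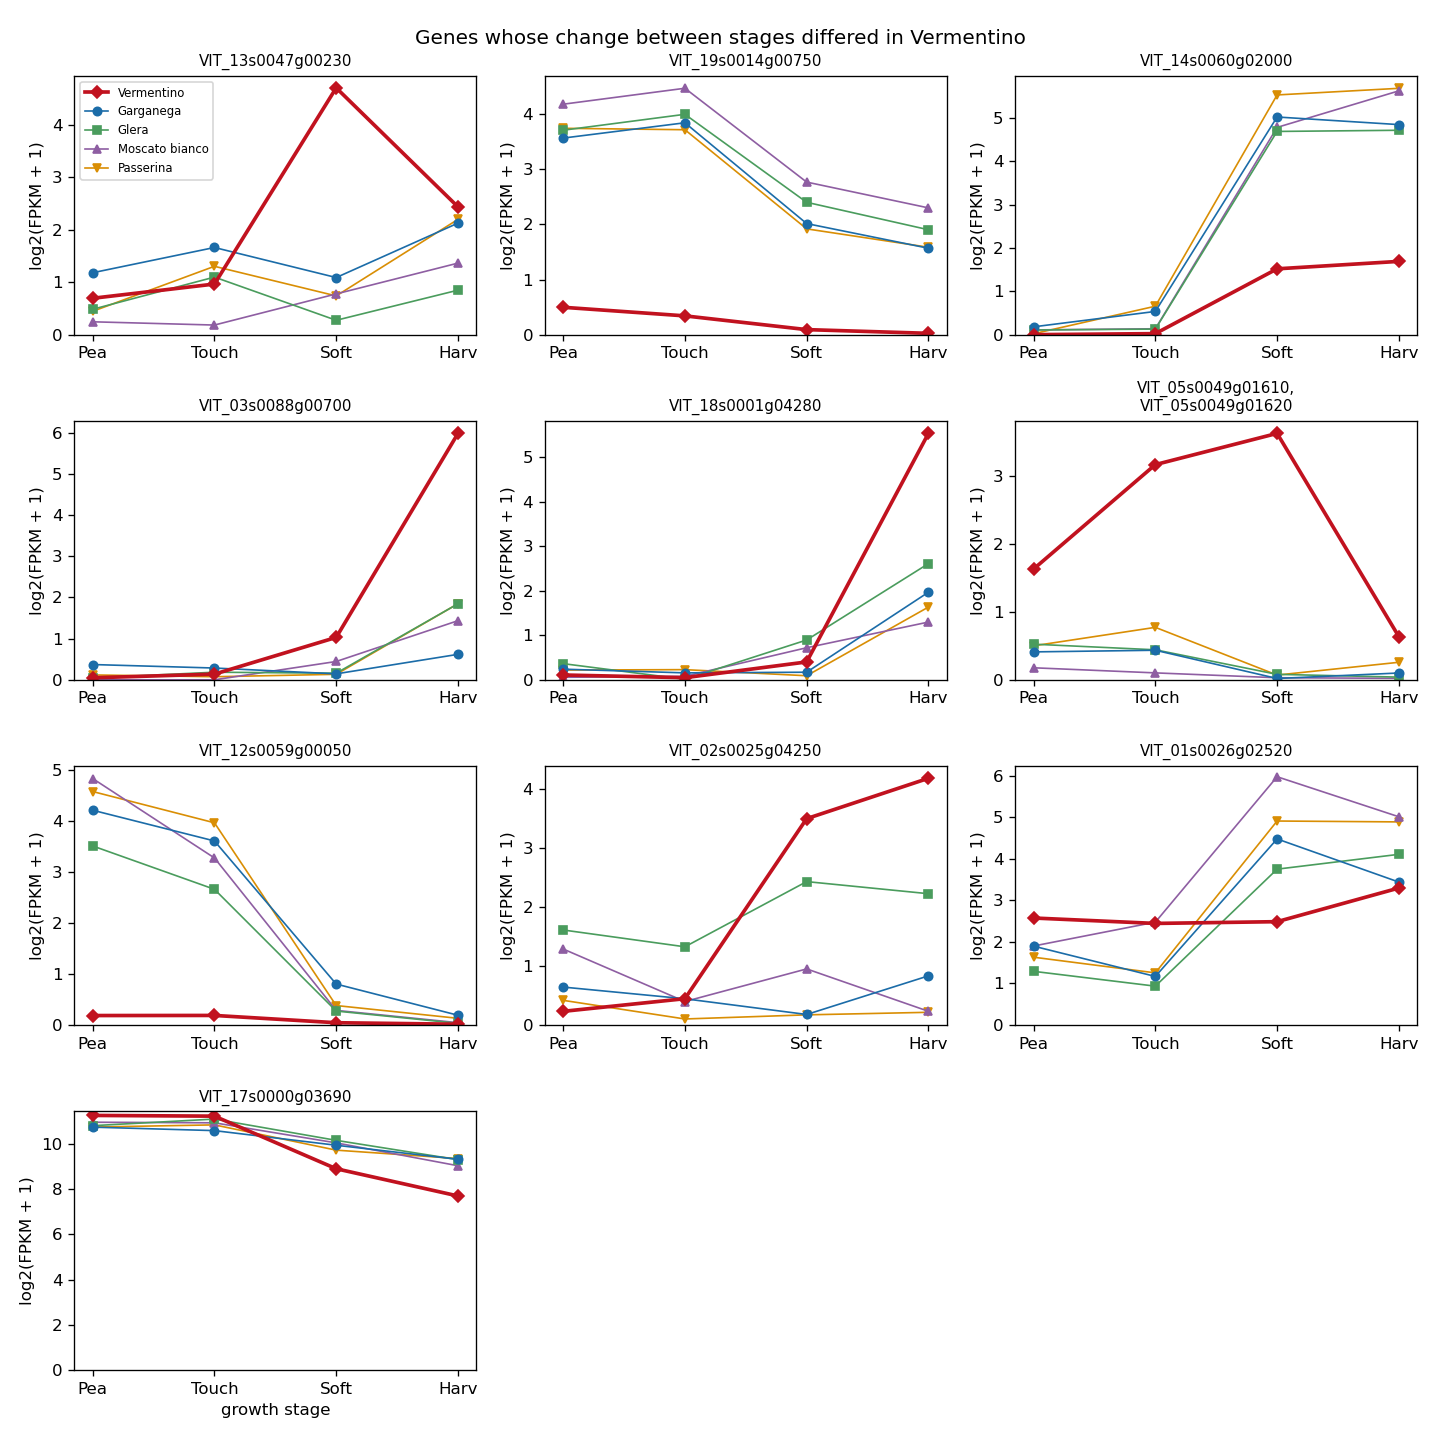
Each panel is 1 gene whose change between stages was called different, with the stage on the x axis and log2(FPKM + 1) on the y axis, and each line is 1 cultivar. Vermentino, in thick red, reaches 62.4 FPKM at Harv in VIT_03s0088g00700 and stays at 1.87 FPKM at Soft in VIT_14s0060g02000, where the others reach at least 24.8.

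Over all genes, the Vermentino profile stayed within the range of the other cultivars along ripening. For each cultivar in turn, the mean profiles of its other 4 cultivars at Pea and at Harv were set as 0% and 100%. Its own columns were projected on the line between them. Each cultivar was thus placed on its own line, and Vermentino is part of the lines of the others. Vermentino lay at -0.115% at Pea, 21.6% at Touch, 72.2% at Soft and 101.5% at Harv. The others ran from -0.701% to 5.24% (Pea), 14.5% to 34.8% (Touch), 66.3% to 79.5% (Soft) and 92.9% to 102% (Harv), so Vermentino was inside their range at each stage. With 5 values the smallest exact p for 1 cultivar against the rest is 0.2, and no test was made. The typical distance of Vermentino from the mean of the other 4 (root mean square over genes, log2 scale) was 0.515 at Pea, the smallest of the 5 cultivars, and 0.584 at Soft, the largest. The nearest cultivar was Passerina at Pea and Glera at the other 3 stages.

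Within Vermentino 2600 genes moved at least 2-fold from Pea to Touch (12.5%), 868 up and 1732 down. From Touch to Soft 4282 genes moved (20.6%), 856 up and 3426 down, and from Soft to Harv 2873 did (13.8%), 1043 up and 1830 down. The other cultivars had 1740 to 2574, 3883 to 5497 and 913 to 2487 genes at these steps. The genes that passed 2-fold in Vermentino and in no other cultivar numbered 494, 492 and 735 at the 3 steps in order. The like counts in the other cultivars were 188 to 558, 191 to 907 and 74 to 615.

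**Figure D5:**
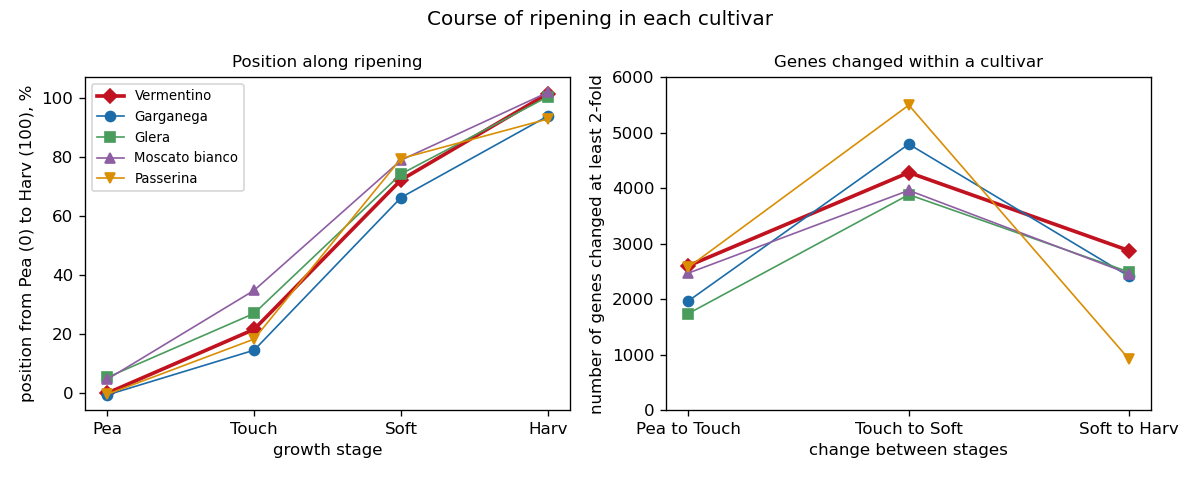
Left, the position of each cultivar at each stage. For each cultivar, 0% and 100% are the mean profiles at Pea and Harv of the cultivars other than itself. Right, the number of genes that changed at least 2-fold at each step, where Vermentino, in thick red, stands at 2600, 4282 and 2873.

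The most abundant genes in Vermentino were VIT_19s0014g02740 and the joined entry VIT_08s0056g01600,VIT_08s0056g01610. The first stood at 3041 FPKM at Pea, 43175 at Touch and 61478 at Harv, and was listed at 0 at Soft. It was also listed at 0 in Passerina at Touch and Soft and in Moscato bianco at Touch, so no difference is drawn from it. In the Soft column the 100 most abundant genes held 32.0% of the summed FPKM at Soft in Vermentino, against 37.8% to 46.1% in the others. For Garganega, Glera and Moscato bianco these shares include VIT_19s0014g02740, with values of 116700 to 139500 FPKM. The gene adds nothing to the shares of Vermentino and Passerina, and Passerina had the 37.8%. The part of the 0 listing in the lower share of Vermentino was not tested. The joined entry went in Vermentino from 1177 FPKM at Pea to 15258 at Soft and 42551 at Harv, and Vermentino was lowest of the 5 cultivars at Touch and Soft. At Pea and Harv Vermentino lay inside the range of the others. The difference of this entry over the stages was -0.87 ± 0.24 (SE, log2 scale; adjusted p = 0.0191, limma), short of 2-fold. That test takes the 4 stages of a cultivar as separate measurements. With cultivar means as units the SE was 0.81, close to the size of the difference itself.

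The place of the called genes in identifier order is given as a description, with no test of evenness. In this naming scheme the first digits number the chromosome, with 0 for unplaced sequence. The called share ran from 1.23% of 1060 genes on chromosome 6 to 5.78% of 831 on chromosome 9, against 3.32% of all genes, and on chromosome 9 33 of the 48 called genes were low. Unplaced genes were called in 5.02%. Among the high genes 36 of 314 (11.5%) had a called neighbour of the same direction in identifier order, and among the low genes 66 of 378 (17.5%) did. Neighbours were taken among tested genes with the same identifier start, so genes not tested could lie between them. Of all genes tested 1.51% were called high and 1.81% low. The share of all genes with such a neighbour was not worked out, so no clustering is read from these shares. There were 9 runs of at least 3 called genes, picked out after their values were seen. In 1 run of 3 low genes with identifiers starting VIT_00s0256, Vermentino averaged 0.00606 to 0.0235 FPKM over the stages and the other cultivars 11.0 to 37.8 FPKM. In a run of 4 high genes starting VIT_07s0141, Vermentino averaged 3.96 to 69.7 FPKM and the others 0.670 to 15.3 FPKM. Of those 4 genes, 1 lay above the other cultivars at all stages, and the 75 genes tested with that start held 7 high and 3 low genes in all.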

How the data were processed

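The authors deposited 1 table of FPKM with 20 columns, each their mean for 1 cultivar and stage per the file headers. TopHat2 2.0.6 and Cufflinks 2.0.2 were used per the submitters' processing notes. The settings, genome build and annotation were not given in the sources used here. Column names gave the group of all 20 columns, and 608 of the 29287 entries join several identifiers.

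Genes that reached 1 FPKM in any column entered as log2(FPKM + 1), a scale that understates the fold of low genes. A gene high in 1 cultivar alone can enter through that cultivar. limma 3.58.1 in R 4.3.3 was run with an intensity trend. The test over the stages had cultivar and stage as terms and 12 residual degrees of freedom. A single stage had 3 of its 5 columns' degrees of freedom left, and stage changes had 9. A call needed an adjusted p under 0.05 and a 2-fold difference. The fits were tested on simulated data. Figures and summaries used Python 3.11.15.

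Named genes, apart from the most abundant in Vermentino, were called genes outside the range of the other cultivars. They had 10 FPKM or more on the higher side and the widest margin or difference. At most 2 high and 2 low identifiers are given for each comparison, and genes with values listed at 0 were passed over for stages and changes. The cultivar, gene lists and tests were chosen with earlier results of these data known. Lists by gene function were not run, since they need names.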

Additional observations from a re-analysis of the deposited data

Results flagged for a closer look

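At Pea, Vermentino had 78 genes listed at 0 that reached 10 FPKM in another column, and stood far from the other 4 cultivars. In the step from Soft to Harv, Passerina had 568 genes that fell at least 2-fold, far below the other cultivars. Over 37 such sets of 5 values, chance alone would single out about 1.9.

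The 10 genes named for a change between stages were picked from the genes called for it on log2(FPKM + 1). That all of them passed was thus fixed by the choice. The differences are Vermentino minus the mean of the other cultivars. From Touch to Soft, the difference in log2 change was 4.08 for VIT_13s0047g00230, 1.48 for VIT_19s0014g00750 and -3.15 for VIT_14s0060g02000. For VIT_19s0014g00750 and VIT_14s0060g02000 the plain fold in Vermentino lay inside the range of the other cultivars, though it rested on low values. For these genes 10 of 15 and 8 of 14 alternatives ended the call. From Soft to Harv, the difference was 3.74 for VIT_03s0088g00700, 3.73 for VIT_18s0001g04280 and -3.05 for VIT_05s0049g01610,VIT_05s0049g01620. The last, a joined entry, entered the comparison through Vermentino alone. Between green and ripe stages, the difference was 3.40 for VIT_12s0059g00050, 3.37 for VIT_02s0025g04250, -2.62 for VIT_01s0026g02520 and -1.72 for VIT_17s0000g03690.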

How the results depend on the processing

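Only means over libraries were used, so p-values rest on unevenness between cultivars and stages, and depth is unknown. No paired analysis was possible because the columns are means over libraries and carry no replicate numbers; in the test over the stages the columns were paired by stage alone. No gene called over the stages both in the main run and under another setting changed direction. Genes that lost this call under a setting were not checked for direction, apart from the named ones. The tested differences of the named genes kept their direction in every run. Of the runs of the named genes under other settings, 222 kept the call and 73 lost it.

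With a pseudocount of 0.1, 1560 genes were called over the stages, 574 of them outside the range at all stages, and 116 had the 2-fold margin. Calls were then 0 at Pea, 0 at Soft and 0 at Harv, 1 for the change from Touch to Soft and 5 for the last step. With a pseudocount of 5 the counts were 201, 104 and 6, with 5 calls at Touch, 20 at Soft, 11 at Harv and 48 between green and ripe stages. Without a filter, 38 genes were called at Pea, 37 at Touch, 47 at Soft and 45 at Harv, and 17, 27 and 45 for the steps in order. With a filter of 5 FPKM, 0 were called at Pea, Soft and Harv, 2 from Touch to Soft, 3 from Soft to Harv and 47 from green to ripe. Equal medians gave 41 from Soft to Harv, and quantile normalization gave 2 at Harv. Without genes listed at 0 that reached 10 FPKM elsewhere, 1 was called at Pea, 0 at Soft, 0 at Harv and 2 from Pea to Touch. Without the trend, 13 were called at Pea, 7 at Touch and 13 at Soft. With the spread pooled over stages, 82, 103, 75 and 115 were called from Pea to Harv.

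A test against 2-fold itself called 102 genes over the stages, 67 of them outside the range. It called 5 at Pea, 0 at Soft, 0 at Harv, 2 from Touch to Soft, 2 from Soft to Harv and 10 from green to ripe. A limit of 1.5-fold gave 1755 genes over the stages, 678 of them outside the range, and 97 with a margin of that size, against 5 with a 4-fold margin. Cultivar means as units gave 1 gene, which lay outside the range, so 1 in both counts. The cause of these shifts was not tested.

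Leaving out 1 other cultivar, or 1 stage for the counts over stages, gave 555 to 783 called genes, 344 to 493 outside the range and 37 to 79 with the margin. It gave 0 to 0 calls at Pea, 0 to 0 at Touch, 0 to 1 at Soft and 0 to 1 at Harv. The changes gave 5 to 9, 4 to 13, 2 to 10 and 56 to 100 calls in the order of the text.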
